A study of Mus musculus with 19 samples.

Results

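The genes described here are 10 that encode enzymes of branched-chain amino acid breakdown and the pair of enzymes that switch it on and off. They are Bcat2, Bckdha, Bckdhb, Dbt, Bckdk, Ppm1k, Ivd, Mccc1, Mccc2 and Acadsb. They were chosen by name, and all 10 of 10 were found by symbol among the 55536 genes counted in each library. Leucine, isoleucine and valine first lose their amino group to a transaminase, and the resulting keto acids are then oxidised without return by a mitochondrial dehydrogenase complex. A kinase phosphorylates and stops that complex, and a phosphatase releases it. After this shared step each amino acid has its own chain of matrix enzymes that ends in acetyl-CoA, acetoacetate or succinyl-CoA. Heart muscle holds the whole route, and lower expression of it has been described in failing hearts.

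RNA came from mouse ventricles in which the gene for MPC1, a subunit of the carrier that brings pyruvate into mitochondria, had been deleted in the heart of adult mice by induction, or from wild-type ventricles. The groups were MPC1 knockouts (KO-8, n = 4) and wild types (WT-8, n = 5) at 8 weeks after induction, and MPC1 knockouts (KO-16, n = 5) and wild types (WT-16, n = 5) at 16 weeks after it. Libraries were stranded and made from total RNA after depletion of ribosomal RNA. The driver of the deletion, the inducing agent, the strain, and the age of the animals are not given in the sources used here, nor whether the wild types carried a floxed allele or received the agent. The labels do not say that each library came from its own animal, so p-values measure the spread between libraries only.

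Totals were 16.5 to 19.5 M (mega) counted read pairs in KO-8, 17.4 to 27.5 M in WT-8, 9.54 to 26.9 M in KO-16 and 8.63 to 19.7 M in WT-16. Mpc1 had 8.42 to 11.99 CPM (counts scaled to library size with TMM factors) in KO-8, against 63.7 to 82.4 CPM in WT-8. At 16 weeks it had 26.2, 9.04, 9.26, 15.1 and 16.0 CPM in KO-16 replicates 1 to 5, against 61.7 to 83.9 CPM in WT-16. Among these, replicate 1 had the highest level, and this library is described apart where it bears on a value. An 18S ribosomal RNA gene took 1.71% to 30.0% of the counts in KO-16 and 6.88% to 39.1% in WT-16, and at most 0.0666% in any 8-week library. Cardiomyocyte markers summed to at least 27074 CPM in every library, and Alb and Apoa1, markers of liver, to at most 3.82 CPM.

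The members lie on 6 chromosomes of GRCm38. Bcat2 (ENSMUSG00000030826) spans 45570153 to 45589711 on chromosome 7, where Bckdha (ENSMUSG00000060376, 25629946 to 25658981), Bckdk (ENSMUSG00000030802, 127904082 to 127910221) and Acadsb (ENSMUSG00000030861, 131410601 to 131448944) also lie. Dbt (ENSMUSG00000000340) spans 116513070 to 116549981 on chromosome 3, as does Mccc1 (ENSMUSG00000027709) from 35959312 to 36000678. Bckdhb (ENSMUSG00000032263) lies on chromosome 9, 83925145 to 84124240, and Ppm1k (ENSMUSG00000037826) on chromosome 6, 57506502 to 57535468. Ivd (ENSMUSG00000027332) lies on chromosome 2, 118861954 to 118882909, and Mccc2 (ENSMUSG00000021646) on chromosome 13, 99948530 to 100015639. Bckdha, Ppm1k, Mccc1 and Mccc2 are on the minus strand and the others on the plus strand. A predicted gene lies on the same strand over part of Dbt, Mccc1 and Acadsb, so some of their read pairs may not have been counted for them. This was not tested.

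The promoters of 2 pairs of partners are shown because the ratio of the partners' transcripts differed between knockouts and wild types at 16 weeks, as given further on. The pairs were thus picked after their values were seen. Mccc1 and Mccc2, whose ratio also differed at 16 weeks, are not shown. Each run is 300 bases long, from 250 bases before to 50 bases after the transcription start, on the gene's own strand and from RefSeq on GRCm38.p6. Ppm1k (chr6:57535438-57535737, minus strand) and Bckdk (chr7:127903823-127904122, plus strand) encode the phosphatase and the kinase of the dehydrogenase. Bckdhb (chr9:83924887-83925186, plus strand) and Bckdha (chr7:25658712-25659011, minus strand) encode the beta and alpha subunits of its first enzyme. Capitals mark matches, on either strand, to CCNCNCCC, a box bound by KLF factors.
Ppm1k: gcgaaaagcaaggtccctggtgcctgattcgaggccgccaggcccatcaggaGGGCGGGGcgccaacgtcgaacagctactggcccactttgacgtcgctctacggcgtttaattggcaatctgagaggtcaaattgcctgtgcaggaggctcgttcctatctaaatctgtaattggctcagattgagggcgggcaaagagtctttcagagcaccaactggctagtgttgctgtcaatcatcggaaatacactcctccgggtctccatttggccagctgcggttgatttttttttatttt
Bckdk: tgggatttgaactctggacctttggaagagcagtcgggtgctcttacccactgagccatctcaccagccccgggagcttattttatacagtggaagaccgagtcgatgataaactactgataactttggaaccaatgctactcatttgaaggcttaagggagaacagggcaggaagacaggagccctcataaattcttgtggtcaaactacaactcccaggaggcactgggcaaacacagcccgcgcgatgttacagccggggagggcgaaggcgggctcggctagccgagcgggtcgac
Bckdhb: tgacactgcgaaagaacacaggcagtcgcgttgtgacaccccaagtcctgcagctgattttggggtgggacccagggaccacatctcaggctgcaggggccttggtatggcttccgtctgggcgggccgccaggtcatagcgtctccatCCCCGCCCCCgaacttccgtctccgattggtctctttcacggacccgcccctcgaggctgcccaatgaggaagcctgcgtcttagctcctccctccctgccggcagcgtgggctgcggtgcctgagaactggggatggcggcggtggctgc
Bckdha: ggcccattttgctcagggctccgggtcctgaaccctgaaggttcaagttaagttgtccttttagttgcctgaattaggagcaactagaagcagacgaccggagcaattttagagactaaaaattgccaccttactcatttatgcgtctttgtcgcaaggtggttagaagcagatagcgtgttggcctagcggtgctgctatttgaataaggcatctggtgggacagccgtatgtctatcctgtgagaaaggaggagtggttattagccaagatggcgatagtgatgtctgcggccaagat

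RefSeq promoters were matched for 9 of the 10 members, Dbt being the exception, with 11 start sites in all. The KLF box occurred in 5 of these 11 promoters, those of Ppm1k, Bckdhb, Ivd, Mccc1 and Acadsb, against 49.5% of all 32851 mouse promoters of the same length. In Ppm1k the match began 198 bases before the start, and the Bckdhb promoter shown had 2 overlapping matches at 101 and 99 bases before it. The promoter of another Bckdhb start site (chr9:83948531-83948830, plus strand) had no match. None of the 11 held AAGGTCA (an ERR site, in 4.72% of all promoters), TGATGCAA (a C/EBP-ATF site, 0.895%), the NRF1 palindrome (0.971%) or the PPAR direct repeat (0.0396%) on either strand. These are matches of letters in a short window and describe no binding. A link between the KLF box and lower transcripts in the knockouts was not tested.

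CPM per kb divides CPM by the length of all annotated exons of a gene, 1899 bases for Bckdha and 10952 for Mccc1. Transcripts present may be shorter, so the order depends on the annotation. By CPM alone in WT-8, the means of Ivd (187), Ppm1k (142) and Acadsb (117) lay above that of Bckdha (110). Per kilobase of exon, Bckdha had the highest level of the 10 genes at 8 weeks, at 54.5 ± 3.26 CPM per kb in KO-8 and 58.1 ± 3.95 in WT-8 (SD). Ivd followed at 24.7 ± 2.72 CPM per kb in KO-8 and 34.0 ± 1.34 in WT-8, and Ppm1k came after it at 15.8 ± 3.09 and 23.6 ± 1.61 CPM per kb in the same groups. Those 3 did not overlap each other among the WT-8 libraries. Acadsb, Dbt, Bckdhb, Mccc2 and Bckdk lay between 10.8 and 16.3 CPM per kb in both groups, and neighbours in that order overlapped. Bcat2 had 7.22 ± 0.850 CPM per kb in KO-8 and 8.10 ± 0.635 in WT-8, and Mccc1 was lowest at 4.09 ± 0.476 and 4.65 ± 0.228.

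At 16 weeks the order was different. Ppm1k had 14.1 ± 8.04 CPM per kb in KO-16 and 35.6 ± 2.27 in WT-16, where its level per kb was the highest. Bckdha led in KO-16 at 21.1 ± 5.65 CPM per kb and was the fifth in WT-16 at 19.1 ± 4.02. In KO-16 the libraries of all neighbours in the order overlapped except those of Bckdk and Bcat2. Between the wild-type groups the mean CPM of Bckdha in WT-16 was 0.328 times that in WT-8, that of Bcat2 0.428 times and that of Acadsb 1.93 times. The 16-week samples had 2 count files each and the 8-week samples 1, so time after induction and the sequencing of the libraries cannot be told apart in such ratios.

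In the knockouts, 4 of the 10 members were lower at 8 weeks and 4 at 16 weeks, and none was higher at either time, also at an unadjusted p under 0.05 and with DESeq2. At 8 weeks these were Acadsb, Ivd, Ppm1k and Bckdhb, which were 1.24- to 1.48-fold lower. At 16 weeks they were Mccc1, Ppm1k, Dbt and Bckdhb, which were 1.74- to 2.52-fold lower. With DESeq2, 5 members were lower at 8 weeks, against 4.37% of all genes, and 6 at 16 weeks, against 4.29%. In edgeR, Ppm1k and Bckdhb passed at both times, and Bcat2, Bckdha, Bckdk and Mccc2 at neither. Of all genes tested, 3.91% were called lower at 8 weeks (593 of 15173) and 0.945% at 16 weeks (119 of 12597), while 4.3% and 1.88% were called higher, by edgeR's quasi-likelihood test with Benjamini-Hochberg adjustment at 0.05. The median log2 fold change of the members was -0.23 at 8 weeks and -0.78 at 16 weeks, against 0.00 and 0.01 over all genes tested. All 10 members passed the filter on low counts at both times. The 16-week calls rested on few libraries, since none of the 4 held without any one of KO-16 replicates 2, 3 or 4 or WT-16 replicates 1, 2, 4 or 5. Without KO-16 replicate 1, 7 members were called lower, against 6.28% of all genes, and without KO-16 replicate 5, 6 were, against 6.48%.

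**Figure D1:**
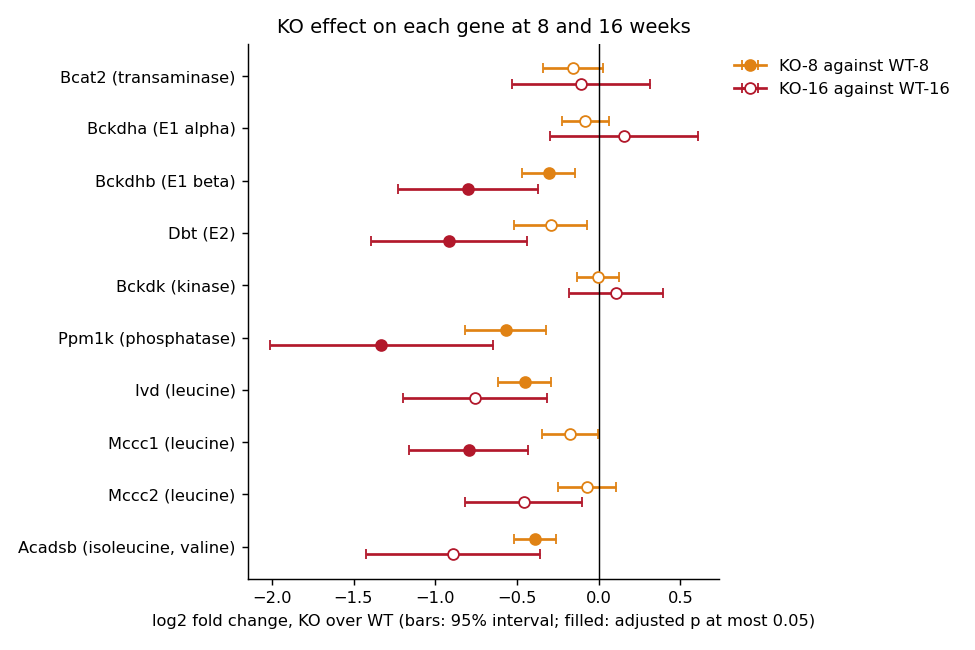
Log2 fold change of each of the 10 genes (x axis, KO over WT) at 8 weeks and at 16 weeks, with bars for the 95% interval and filled points where the adjusted p is at most 0.05. Ppm1k lies farthest to the left at both times (-0.57 and -1.33), while Bckdk and Bckdha lie at or close to 0 with intervals that include it.

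Bcat2 encodes the mitochondrial transaminase that takes the amino group from all 3 branched-chain amino acids. It had 31.6, 30.0, 24.2 and 26.8 CPM in KO-8, against 34.3, 29.3, 30.3, 34.2 and 29.7 CPM in WT-8. Its 16-week levels were 14.03, 12.7, 14.6, 13.4 and 7.15 CPM in KO-16, against 13.9, 13.4, 15.2, 10.3 and 14.7 CPM in WT-16. The groups overlapped at both times, with replicate 5 of KO-16 below every other library of its time. The log2 fold change was -0.16 at 8 weeks (95% interval -0.34 to 0.03, adjusted p = 0.246) and -0.11 at 16 weeks (-0.53 to 0.32, adjusted p = 0.737). Counts at 16 weeks were small, at 43 to 456 read pairs in KO-16 and 55 to 331 in WT-16, and a change of the size seen in Ppm1k lies outside that interval.

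Bckdha and Bckdhb encode the alpha and beta subunits of E1, the decarboxylase of the branched-chain keto acid dehydrogenase, which work together as a heterotetramer. Bckdha had 105, 109, 105 and 94.8 CPM in KO-8, against 117, 113, 105, 116 and 100 CPM in WT-8. In KO-16 it had 48.2, 49.2, 43.5, 36.04 and 23.3 CPM, against 33.6, 28.9, 46.9, 30.3 and 41.2 CPM in WT-16. The groups overlapped at both times. Its log2 fold change was -0.08 at 8 weeks (95% interval -0.23 to 0.06, adjusted p = 0.468) and 0.15 at 16 weeks (-0.30 to 0.61, adjusted p = 0.646).

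Bckdhb had 21.6, 19.99, 18.5 and 17.7 CPM in KO-8, against 23.8, 21.5, 25.3, 25.0 and 25.4 CPM in WT-8. Only replicate 1 of KO-8 reached into the WT-8 range. At 16 weeks it had 20.6, 13.7, 10.7, 15.03 and 15.8 CPM in KO-16, against 20.5, 22.1, 25.7, 28.1 and 35.9 CPM in WT-16, and again only replicate 1 of the knockouts reached the wild types. Bckdhb was 1.24-fold lower at 8 weeks (log2 fold change -0.31, SE 0.07, adjusted p = 0.0153). At 16 weeks it was 1.74-fold lower (log2 fold change -0.80, SE 0.19, adjusted p = 0.0400). The later of the 2 files of each 16-week sample alone gave -0.79 and did not pass (adjusted p = 0.0528).

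The ratio of the 2 subunit transcripts, taken within each library, differed between knockouts and wild types at 16 weeks. The log2 count ratio of Bckdha over Bckdhb was 1.23, 1.84, 2.01, 1.26 and 0.56 in KO-16, against 0.71, 0.39, 0.87, 0.11 and 0.20 in WT-16. Replicate 5 of KO-16 was the one knockout library inside the wild-type range. The difference of means was 0.93 (exact permutation test over libraries, two-sided, p = 0.0238, adjusted p = 0.0357 over 6 tests). At 8 weeks the ratio was 2.41 ± 0.097 in KO-8 and 2.19 ± 0.170 in WT-8 (SD), a difference of 0.22 that did not pass (exact permutation test, adjusted p = 0.0571), and that passed without KO-8 replicate 1 (0.27, adjusted p = 0.0429). A ratio within a library does not depend on how libraries are scaled, but it shows unequal change and not which partner moved. In KO-16 the ratio was highest in replicates 2 and 3, where the 18S gene took 1.71% and 5.66% of the counts. It was lowest in replicate 5, with 26.1%, but replicate 4, with 30.0%, had 1.26. In WT-16, replicate 3 had the lowest share (6.88%) and the highest ratio, while replicate 1 had the highest share (39.1%) and a ratio of 0.71. The part of the 18S share in the ratios was not tested. The 16-week call was lost on leaving out KO-16 replicate 1, 2, 3 or 4 or WT-16 replicate 1, 2, 4 or 5 (adjusted p = 0.0571 each).

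Dbt encodes E2, the acyltransferase that forms the core of the complex and to which kinase and phosphatase bind. It had 50.6, 44.4, 36.7 and 35.7 CPM in KO-8, against 52.9, 53.8, 56.1, 46.7 and 48.5 CPM in WT-8, with 3 of the 4 knockout libraries below all wild types. The log2 fold change of -0.29 (SE 0.09) did not pass (adjusted p = 0.0750), and it passed without KO-8 replicate 1 (-0.39, adjusted p = 0.0175). At 16 weeks Dbt had 65.4, 32.0, 26.9, 40.3 and 55.5 CPM in KO-16, against 80.2, 84.8, 72.7, 85.4 and 92.7 CPM in WT-16. No knockout library reached the wild-type range. The fold change of -0.92 on the log2 scale (SE 0.21, adjusted p = 0.0362) is a 1.89-fold lower level.

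**Figure D2:**
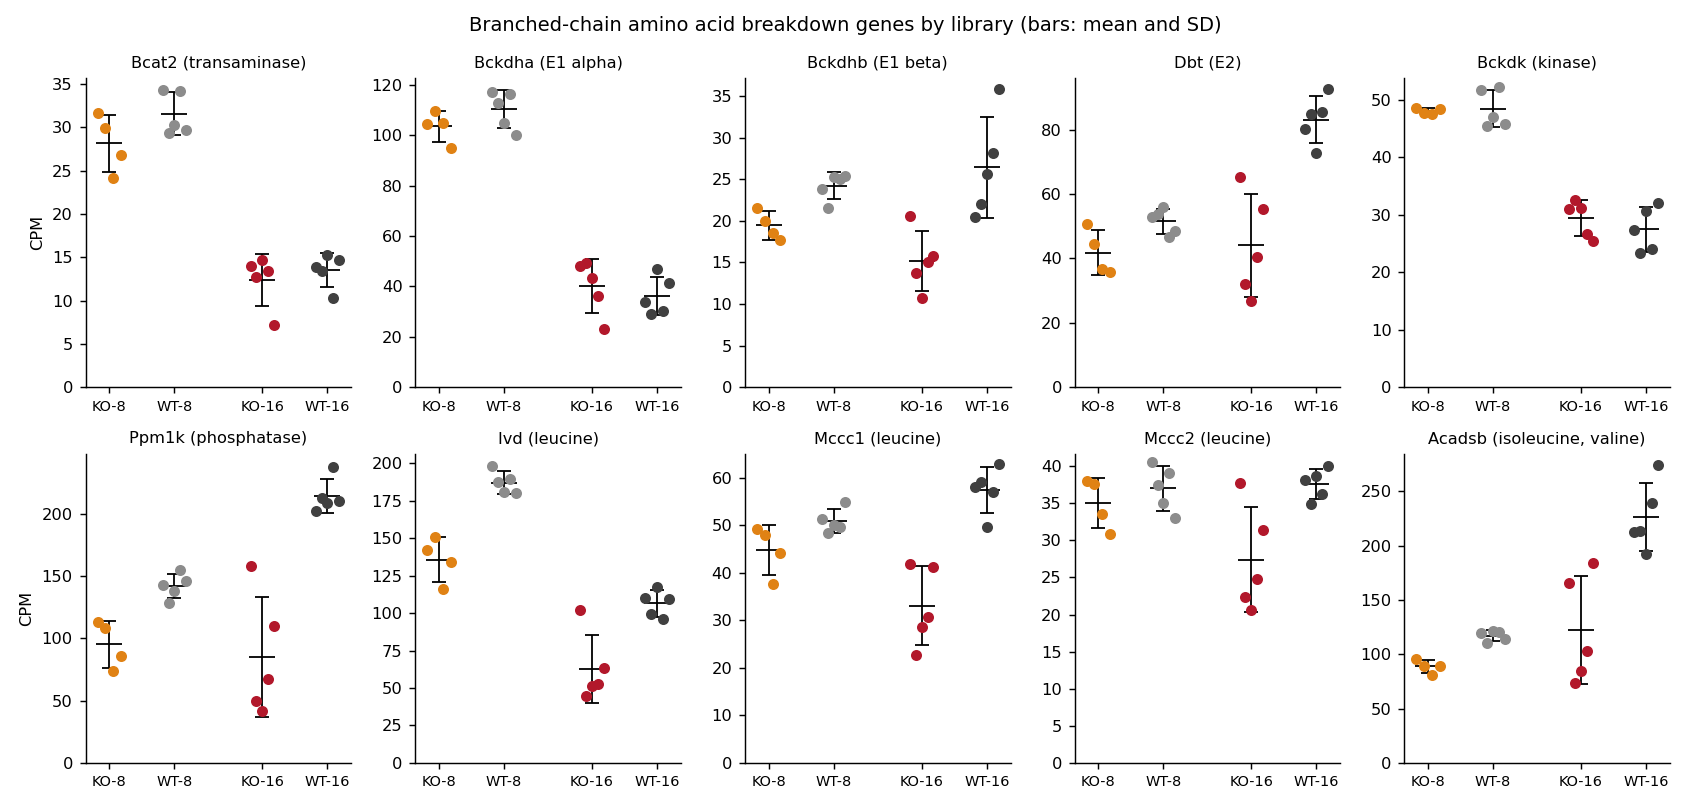
CPM of each of the 10 genes in every library (points), with the mean and SD of each group as bars, for KO-8, WT-8, KO-16 and WT-16 from left to right; each panel has its own axis from 0. The KO-16 points of Dbt, Ppm1k, Mccc1 and Acadsb lie below all WT-16 points, and those of Bcat2, Bckdha and Bckdk overlap the range of the WT-16 points. Those of Bckdhb, Ivd and Mccc2 reach into that range with replicate 1 alone.

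Ppm1k encodes the mitochondrial phosphatase that activates the complex by removing the phosphate from E1 alpha. It had 113, 108, 73.6 and 85.5 CPM in KO-8, against 142, 128, 138, 154 and 146 CPM in WT-8. In KO-16 it had 158, 49.5, 41.4, 67.3 and 110 CPM, against 203, 212, 208, 238 and 210 CPM in WT-16. The groups did not overlap at either time, and within KO-16 the highest library was replicate 1 and the lowest replicate 3. Ppm1k was 1.48-fold lower at 8 weeks (log2 fold change -0.57, SE 0.10, adjusted p = 0.00454). It was 2.52-fold lower at 16 weeks (log2 fold change -1.33, SE 0.30, adjusted p = 0.0356). Without KO-16 replicate 1 the 16-week log2 fold change was -1.68 (adjusted p = 0.000854).

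Bckdk encodes the kinase that phosphorylates E1 alpha and holds the complex inactive. It had 48.5, 47.8, 47.6 and 48.4 CPM in KO-8, against 51.6, 45.5, 47.0, 52.3 and 45.8 CPM in WT-8. In KO-16 it had 31.0, 32.5, 31.2, 26.6 and 25.4 CPM, against 27.3, 23.3, 30.7, 24.0 and 32.0 CPM in WT-16. The groups overlapped throughout. Its log2 fold change was -0.0012 at 8 weeks (95% interval -0.13 to 0.13, adjusted p = 0.991) and 0.10 at 16 weeks (-0.18 to 0.39, adjusted p = 0.618), so a fall of the size seen in Ppm1k lies outside both intervals.

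The kinase transcript was higher relative to the phosphatase transcript in the knockouts at both times. The log2 count ratio of Bckdk over Ppm1k was -1.22, -1.18, -0.63 and -0.82 in KO-8, against -1.46, -1.50, -1.56, -1.56 and -1.67 in WT-8. The 16-week ratios were -2.35, -0.61, -0.41, -1.34 and -2.11 in KO-16, against -2.89, -3.18, -2.76, -3.31 and -2.71 in WT-16. Every knockout library lay above every wild-type library of its time, replicates 1 and 5 of KO-16 being nearest to the wild types. The difference of means was 0.59 at 8 weeks (exact permutation test, two-sided, p = 0.0159, the smallest that 4 against 5 libraries allow) and 1.61 at 16 weeks (exact permutation test, p = 0.00794, the smallest for 5 against 5). Both had an adjusted p of 0.0357 over the 6 exact permutation tests of 3 ratios at 2 times. The 8-week call was lost on leaving out KO-8 replicate 2, 3 or 4 (exact permutation test, adjusted p = 0.0536 each). Fewer libraries raise the smallest p possible, but equally so without KO-8 replicate 1, where the call was kept. The adjustment also depends on the p-values of the other ratios.

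**Figure D3:**
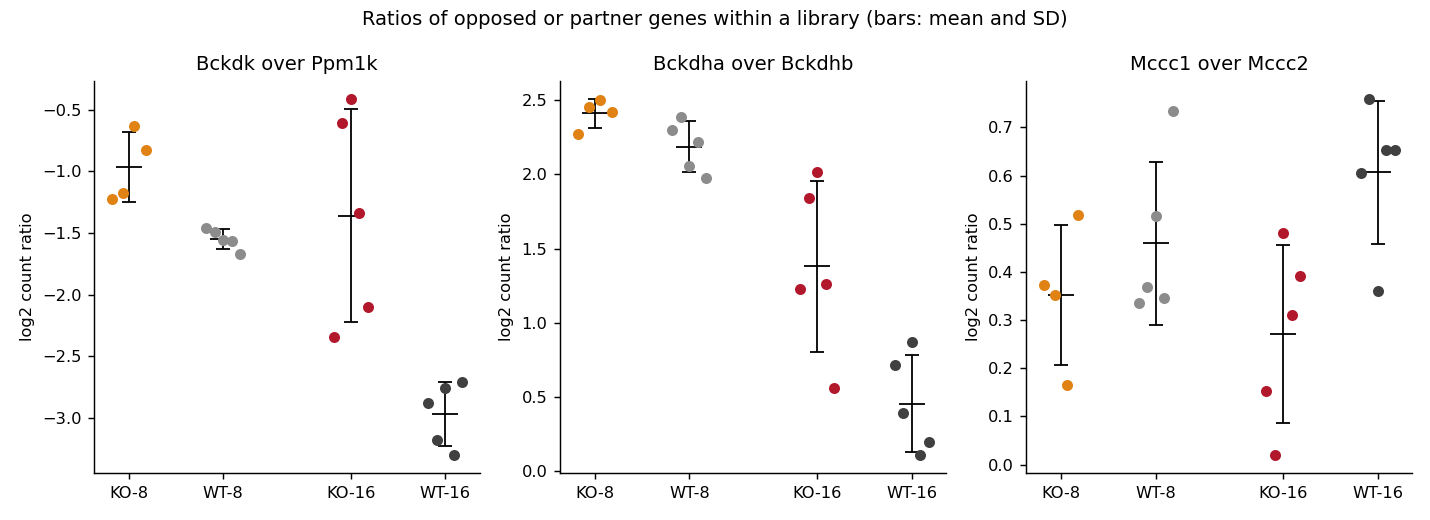
Log2 count ratio within each library (y axis) for Bckdk over Ppm1k, Bckdha over Bckdhb and Mccc1 over Mccc2, with points for libraries and bars for mean and SD in KO-8, WT-8, KO-16 and WT-16. The kinase-over-phosphatase ratio of every knockout library lies above those of the wild types of its time, by 0.59 on average at 8 weeks and by 1.61 at 16 weeks.

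Ivd encodes isovaleryl-CoA dehydrogenase, the first enzyme particular to leucine after the shared steps. It had 142, 151, 116 and 134 CPM in KO-8, against 198, 187, 181, 190 and 180 CPM in WT-8, with no overlap. The log2 fold change was -0.45 (SE 0.07, adjusted p = 0.00128). The 16-week values were 102, 44.6, 51.4, 52.9 and 63.3 CPM in KO-16, against 110, 99.3, 118, 95.9 and 109 CPM in WT-16. Replicate 1 of KO-16 lay within the wild-type range and the other 4 far below it. The 16-week log2 fold change of -0.76 (SE 0.19) missed the threshold (adjusted p = 0.0507), and without KO-16 replicate 1 it was -1.01 and passed (adjusted p = 0.000450), as it did without replicate 5 (adjusted p = 0.0333).

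Mccc1 and Mccc2 encode the alpha and beta subunits of the biotin enzyme methylcrotonyl-CoA carboxylase, which acts next in leucine breakdown. Mccc1 had 49.3, 48.0, 37.7 and 44.2 CPM in KO-8, against 51.3, 48.4, 50.1, 49.7 and 54.9 CPM in WT-8, and its log2 fold change of -0.17 did not pass (adjusted p = 0.162). In KO-16 it had 41.9, 22.7, 28.7, 30.8 and 41.2 CPM, against 58.2, 59.1, 49.7, 57.1 and 63.0 CPM in WT-16. The 16-week groups did not overlap, and Mccc1 was 1.74-fold lower (log2 fold change -0.80, SE 0.16, adjusted p = 0.0278). It was the only member whose call also held without WT-16 replicate 3.

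Mccc2 had 38.0, 37.6, 33.6 and 30.9 CPM in KO-8, against 40.6, 37.5, 35.0, 39.1 and 33.0 CPM in WT-8. In KO-16 it had 37.7, 22.4, 20.6, 24.8 and 31.4 CPM, against 38.2, 34.9, 38.7, 36.3 and 40.0 CPM in WT-16. Of the KO-16 libraries 4 lay below all wild types and replicate 1 among them. The log2 fold changes of -0.07 at 8 weeks (95% interval -0.25 to 0.11, adjusted p = 0.635) and -0.46 at 16 weeks (-0.82 to -0.10, adjusted p = 0.0974) did not pass, and without KO-16 replicate 1 the 16-week value was -0.61 and passed (adjusted p = 0.0108). The log2 count ratio of Mccc1 over Mccc2 was 0.27 ± 0.185 in KO-16 and 0.61 ± 0.148 in WT-16 (SD, n = 5 each), a difference of -0.34 with overlapping groups (exact permutation test, adjusted p = 0.0357). This call was lost on leaving out KO-16 replicate 1, 2, 3 or 4 or WT-16 replicate 1, 2, 4 or 5 (adjusted p = 0.0571 each). At 8 weeks the ratio was 0.35 ± 0.144 in KO-8 (n = 4) and 0.46 ± 0.169 in WT-8 (n = 5), a difference of -0.11 (exact permutation test, adjusted p = 0.476).

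Acadsb encodes the dehydrogenase for short branched-chain acyl-CoAs, which takes the isoleucine intermediate and can also act on that of valine. It had 95.3, 88.9, 81.0 and 89.5 CPM in KO-8, against 120, 110, 121, 120 and 114 CPM in WT-8. In the later groups it had 165, 73.6, 84.1, 103 and 184 CPM in KO-16, against 212, 214, 192, 239 and 274 CPM in WT-16. The groups did not overlap at either time, although replicate 5 of KO-16 came within a few CPM of the lowest wild type. Acadsb had the smallest adjusted p of the 10 members at 8 weeks (log2 fold change -0.39, SE 0.05, adjusted p = 0.000838). At 16 weeks the larger log2 fold change of -0.89 had a larger SE of 0.23 and missed the threshold (adjusted p = 0.0533). It passed without KO-16 replicate 1 (-1.03, adjusted p = 0.0130) or replicate 5 (-1.09, adjusted p = 0.0137).

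Groups without overlap and lower in the knockouts were seen in 3 members at 8 weeks (Ppm1k, Ivd and Acadsb) and in 4 at 16 weeks (Dbt, Ppm1k, Mccc1 and Acadsb). Over all genes tested, 5.85% had no overlap with the knockouts lower at 8 weeks and 2.56% at 16 weeks. All 10 members had a negative log2 fold change at 8 weeks and 8 of 10 at 16 weeks, against 49.6% and 48.9% of all genes. At an unadjusted p under 0.05, 6 members were lower at 8 weeks, against 11.2% of all genes, and 7 at 16 weeks, against 11.7%.

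The 16-week knockout effect was not shown to differ from the 8-week effect for any member. The difference between the 2 effects was -0.76 for Ppm1k (95% interval -1.51 to -0.01, adjusted p = 0.380), -0.62 for Mccc1 (-1.02 to -0.22, adjusted p = 0.286) and -0.62 for Dbt (-1.16 to -0.08, adjusted p = 0.340), all on the log2 scale. It was between -0.50 and -0.30 for Acadsb, Bckdhb, Mccc2 and Ivd and between 0.06 and 0.24 for Bcat2, Bckdk and Bckdha. None of the 15503 genes passed this test with edgeR, a share of 0%, while 2000 had an unadjusted p under 0.05 and 30 passed with DESeq2. Without KO-16 replicate 1, 613 genes passed, with 5 members among those lower (Ppm1k, Mccc1, Ivd, Dbt and Mccc2) against 1.82% of all genes.

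The knockout libraries did not fall to the same extent. In KO-16, replicate 1 was the highest library for 6 members, and the lowest library was replicate 3 for 4 members and replicates 2 and 5 for 3 each. The 3 members lowest in replicate 5 were Bcat2, Bckdha and Bckdk, none of which was called. Replicate 5 was the highest for Acadsb (184 CPM), and only replicate 1 lay above it for Ppm1k (110 CPM) and Dbt (55.5 CPM). In KO-8, replicate 1 was highest for 8 members and replicate 3 lowest for 6. Mpc1 had its highest KO-16 level, 26.2 CPM, in replicate 1 and its lowest, 9.04 and 9.26 CPM, in replicates 2 and 3. The summed level of the 8 cardiomyocyte markers was 48176, 27074, 29773, 32331 and 42463 CPM in KO-16 replicates 1 to 5, against 45877 to 52949 CPM in WT-16. It was 38137 to 45007 CPM in KO-8, with the lowest in replicate 3, against 43483 to 47090 CPM in WT-8. In bulk tissue, fewer cells of a type and less RNA per cell cannot be told apart.

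Of these 8 markers none was called at 16 weeks, and Pln and Ryr2 fell at 8 weeks (log2 fold changes -0.25 and -0.32, adjusted p = 0.0175 and 0.00989). At 16 weeks Ryr2 had -0.90 (adjusted p = 0.0741), Pln -0.73 (adjusted p = 0.0685), and Tnni3 and Myh6 -0.51 each. Tnnt2 and Myl2 had -0.23 and -0.17, while Actc1 and Myl3 had 0.15 and 0.31. The members called at that time had -0.80 to -1.33. The 6 fibroblast markers summed to 460 to 1198 CPM in KO-16, against 356 to 455 CPM in WT-16, and to 550 to 824 CPM in KO-8, against 459 to 508 CPM in WT-8. Of the fibroblast markers 3 of 6 were called higher at 8 weeks and 2 of the 5 tested at 16 weeks, and none lower. At both times Col1a1 and Col1a2 rose (Col1a2 by 2.14 on the log2 scale at 16 weeks, adjusted p = 0.0211). Their 16-week calls held without KO-16 replicate 1 or 5, that of Col1a2 also without WT-16 replicate 3, and in no other of the 10 fits with a library left out.

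Markers of other cell types also differed between the groups. The 5 endothelial markers summed to 530 to 592 CPM in KO-8, against 476 to 519 CPM in WT-8, with no overlap, and to 474 to 688 CPM in KO-16, against 436 to 485 CPM in WT-16. Of these, Cdh5 and Pecam1 rose at 8 weeks (log2 fold changes 0.26 and 0.22, adjusted p = 0.0105 and 0.0210), and none was called at 16 weeks. The 5 markers of smooth muscle and pericytes summed to 996 to 1256 CPM in KO-8, against 1081 to 1114 CPM in WT-8, and to 897 to 1405 CPM in KO-16, against 1247 to 1543 CPM in WT-16. Tagln, a smooth muscle actin-binding protein, rose at both times (0.52, adjusted p = 0.0349, and 1.48, adjusted p = 0.0321), while at 8 weeks Myh11 rose (0.47) and Abcc9 fell (-0.39). The 5 erythroid markers summed to 255 to 568 CPM in KO-8, against 430 to 955 CPM in WT-8, and to 47.4 to 1123 CPM in KO-16, against 53.1 to 132 CPM in WT-16. Only Hbb-bt was called, lower at 8 weeks (-0.79, adjusted p = 0.0246), and the 4 tested at 16 weeks had log2 fold changes of 1.76 to 2.72 that did not pass. None of the 5 macrophage markers was called at either time, and of 4 adipocyte markers the 1 tested, Fabp4, rose at 8 weeks (0.39, adjusted p = 0.0345). The call of Pecam1 was lost without KO-8 replicate 3 or WT-8 replicate 1 or 4, and those of Tagln, Hbb-bt and Fabp4 at 8 weeks without KO-8 replicate 1 or WT-8 replicate 2, 3 or 4. They were also lost without KO-8 replicate 2 for Tagln, 3 for Hbb-bt and 3 or 4 for Fabp4, and without WT-8 replicate 1 for Tagln and Fabp4. At 16 weeks Tagln passed without KO-16 replicate 1 or 5 or WT-16 replicate 3 and in no other of the 10 fits. The part of these cell types in the members' values was not tested.

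Scaled to the summed cardiomyocyte markers instead of by TMM, an alternative added after the data were seen, the median log2 fold change of all genes moved to 0.50 at 16 weeks and 0.08 at 8 weeks. On that scale Ppm1k (-0.99, adjusted p = 0.0110), Dbt (-0.52, adjusted p = 0.0286) and Acadsb (-0.50, adjusted p = 0.0375) were called lower at 16 weeks, against 1.01% of all genes. Bckdhb (-0.36, adjusted p = 0.153) and Mccc1 (-0.37, adjusted p = 0.0607) did not pass there, and Bckdk (0.61, adjusted p = 0.0418) was called higher, as 29.5% of all genes were. At 8 weeks 3 of the 4 calls held on that scale, and Bckdhb did not (-0.23, adjusted p = 0.0976), against 1.83% of genes called lower. The part of cell composition in the TMM-scaled values was not tested beyond this scaling.

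The 18S share also varied, at 12.7%, 1.71%, 5.66%, 30.0% and 26.1% in KO-16 replicates 1 to 5, against 39.1%, 25.2%, 6.88%, 23.2% and 29.7% in WT-16 replicates 1 to 5. With the log2 CPM of that RNA as a covariate, the 16-week log2 fold changes of Ppm1k, Dbt, Bckdhb and Mccc1 were -1.16, -0.75, -0.73 and -0.64, and none of the 10 members passed (adjusted p = 0.0999, 0.103, 0.122 and 0.0673 for these 4). Over all genes 35 passed with this covariate, against 356 without it. Y-linked transcripts marked replicate 4 of KO-16 and replicate 5 of WT-16. Without both, the log2 fold changes of the same 4 genes were -1.27, -0.85, -0.67 and -0.74, and no member was called (10 genes in all).

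**Figure D4:**
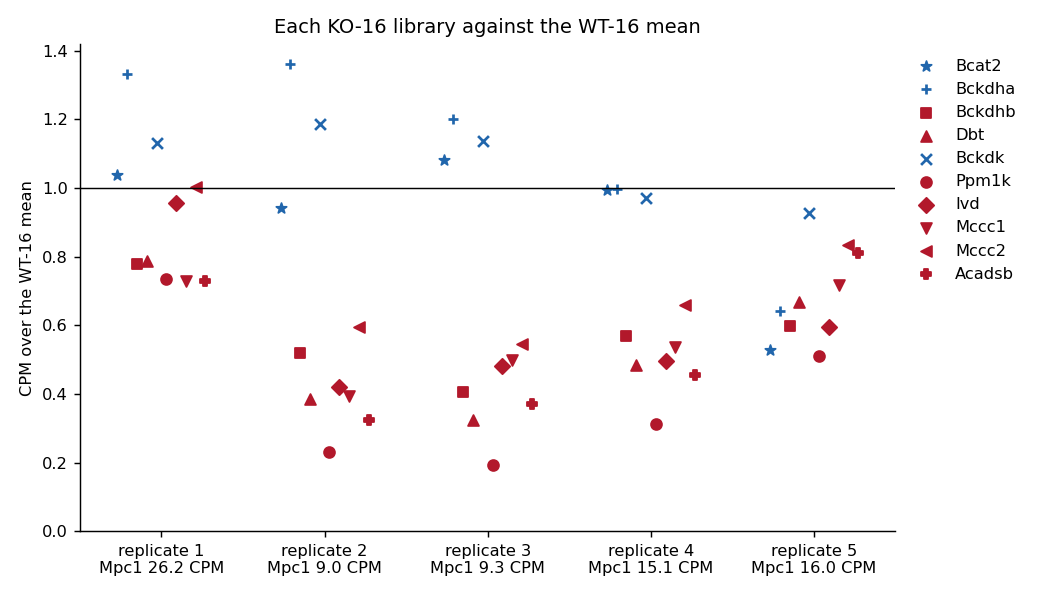
CPM of each of the 10 genes in each KO-16 library divided by the WT-16 mean of that gene (y axis), with the line at 1 marking that mean and the Mpc1 level under each replicate. Bcat2, Bckdha and Bckdk are in blue and the other 7 genes in red; Ppm1k is lowest in replicates 2 to 5, the red genes other than Acadsb lie closest to 1 in replicate 1, where Mpc1 was 26.2 CPM, and Bcat2 and Bckdha are low in replicate 5.

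Another 15 enzymes of the pathway are described for comparison, with no test of their difference from the members. At 8 weeks 2 of 15 were lower and none higher, with a median log2 fold change of -0.09. These were Aldh6a1, the methylmalonate semialdehyde dehydrogenase of valine breakdown (-0.30, SE 0.05, adjusted p = 0.00393), and Echs1, an enoyl-CoA hydratase (-0.30, SE 0.06, adjusted p = 0.00859). At 16 weeks 2 of the 14 tested were lower and none higher, with a median of -0.30. Aldh6a1 had 113 ± 42.1 CPM in KO-16 and 209 ± 22.4 CPM in WT-16 (log2 fold change -0.88, adjusted p = 0.0420), and Mut, the methylmalonyl-CoA mutase at the end of the valine and isoleucine routes, had 83.3 ± 30.0 CPM in KO-16 and 151 ± 16.2 CPM in WT-16 (-0.85, adjusted p = 0.0433; SD, n = 5 each). Dld, the E3 subunit that the complex shares with pyruvate dehydrogenase, is named for that role and was chosen after its values were seen. Its log2 fold change was 0.07 at 8 weeks (adjusted p = 0.604) and -0.64 at 16 weeks (adjusted p = 0.141). The 16-week calls of Aldh6a1 and Mut held only without KO-16 replicate 1 or 5 among the 10 libraries left out in turn.

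Of 6 transporters of branched-chain amino acids, Slc43a2 rose at 8 weeks (log2 fold change 0.37, SE 0.10, adjusted p = 0.0301), against 4.3% of all genes called higher, and none of the 3 tested at 16 weeks passed. Slc25a44, the mitochondrial carrier of branched-chain amino acids, had 0.0021 at 8 weeks (adjusted p = 0.989) and 0.32 at 16 weeks (adjusted p = 0.359). Of 5 transcriptional regulators, Ppargc1a, a coactivator of mitochondrial genes, fell at 8 weeks (-0.38, adjusted p = 0.0411). At 16 weeks it had -0.90 with an SE of 0.36 (adjusted p = 0.145). Klf15, a KLF factor known to raise expression of the pathway in heart and muscle, had 27.2 ± 3.44 CPM in KO-8 and 31.7 ± 5.22 CPM in WT-8 (-0.21, adjusted p = 0.280), and 5.37 to 20.1 CPM in KO-16 and 10.4 to 17.7 CPM in WT-16 (-0.61, adjusted p = 0.260). The 8-week calls of Slc43a2 and Ppargc1a were each lost on leaving out KO-8 replicate 2 or 3 or WT-8 replicate 1, 2 or 4, and also without KO-8 replicate 4 for Slc43a2 and without KO-8 replicate 1 for Ppargc1a.

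The pyruvate and 2-oxoglutarate dehydrogenase complexes are built like the branched-chain complex. Of 12 of their genes 3 rose and none fell at 8 weeks. They were Pdhb, the E1 beta subunit of pyruvate dehydrogenase (0.54, SE 0.07, adjusted p = 0.000570), Dlst (0.27, adjusted p = 0.00597) and Pdhx (0.24, adjusted p = 0.0410). Pdhb had 372 ± 41.9 CPM in KO-8 (n = 4) and 259 ± 13.5 CPM in WT-8 (n = 5, SD), while Bckdhb, the matching subunit of the branched-chain complex, was lower. At 16 weeks 1 of 12 passed, the kinase Pdk4, which was 4.71-fold lower (log2 fold change -2.24, SE 0.49, adjusted p = 0.0343), and Pdhb had 0.55 (adjusted p = 0.0529). Pdhx lost its 8-week call without KO-8 replicate 1 or 3 or any one of the WT-8 replicates.

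Of 12 other acyl-CoA dehydrogenases and their electron acceptors, 3 were lower at 8 weeks, namely Acad12 (-0.54, adjusted p = 0.000945), the electron acceptor subunit Etfb (-0.35, adjusted p = 0.0180) and Gcdh (-0.31, adjusted p = 0.0281). At 16 weeks Etfa alone passed (-0.62, SE 0.13, adjusted p = 0.0338), and the medium- and long-chain enzymes Acadm and Acadl had -0.75 and -0.87 (adjusted p = 0.0675 and 0.0613). Of 5 other biotin enzymes and biotin-handling genes, Acaca, the cytosolic acetyl-CoA carboxylase, rose at both times, by 0.44 (adjusted p = 0.0463) and 1.26 (adjusted p = 0.0402) on the log2 scale, and none fell. Gcdh lost its 8-week call without KO-8 replicate 3 or 4 or WT-8 replicate 1, 2 or 4, and Acaca without KO-8 replicate 3 or 4 or any one of the WT-8 replicates. At 16 weeks Pdk4, Etfa and Acaca passed without KO-16 replicate 1 or 5 or WT-16 replicate 3 and in no other of the 10 fits.

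Across the 19 libraries the genes whose log2 CPM most resembled that of Ppm1k, among 8705 genes, were Ccdc141 (Pearson r = 0.978), Aldh6a1 (0.978), Lpl (0.973), Tcaim (0.970) and Fabp3 (0.957). Lpl is lipoprotein lipase and Fabp3 the heart fatty acid-binding protein. Of the members, Dbt ranked 23rd (r = 0.937), Mccc1 64th (0.904), Bckdhb 134th (0.868), Mccc2 193rd (0.843) and Acadsb 222nd (0.833). Ivd had r = 0.532 over all libraries and 0.844 over deviations from the group means, while Bcat2, Bckdha and Bckdk had -0.02, -0.14 and -0.17. Over deviations from the group means the 5 leading genes had r between 0.923 and 0.944. These values are descriptions over libraries that share 4 group means, their scaling and the differences in 18S share.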

How the data were processed

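The authors deposited raw counts of read pairs per gene. Per the file headers, featureCounts 1.6.3 made them with reverse strandedness on GRCm38 and the Ensembl 96 annotation. Cutadapt 1.16, STAR, RSEM, SAMtools and FastQC are listed in the submitters' processing notes. Both files of each 16-week sample were summed; they were not cumulative, since 11.574% to 18.208% of detected genes were lower in the later file. CPM used TMM factors over the 19 libraries. Each time was fitted on its own with edgeR 4.0.16 in R 4.3.3 (quasi-likelihood, TMM, filterByExpr, Benjamini-Hochberg over all genes tested, threshold 0.05), because the biological coefficient of variation was 0.228 at 16 weeks and 0.093 at 8 weeks. The difference between times used all 19 libraries. Intervals are the log2 fold change ± SE times the t quantile at 8 (16 weeks), 7 (8 weeks) or 15 (difference between times) residual degrees of freedom, the SE being that fold change without its sign, divided by the root of F. Ratios added 0.5 to each count. Log2 CPM for likeness had a prior count of 2 and a minimum mean of 5 CPM. Alternatives included DESeq2 1.42.0 and limma 3.58.1, other scalings and filters, and each library left out. Python 3.11.15 with scipy 1.17.1 was used for the permutation tests. The pipeline was tested on simulated data. Of simulated 1.5-fold changes, 91.0% were recovered at 8 weeks, 26.9% at 16 weeks and 23.9% in the difference between times. Of simulated 2-fold changes, 100% were recovered at 8 weeks, 80.6% at 16 weeks and 76.1% in the difference between times.

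All 10 members are reported, and from each comparison list the counts and the genes called at either time. Dld, Slc25a44, Klf15, Acadm and Acadl are also named although they were not called, and they were not picked by adjusted p. Some uncalled genes of the same lists with a smaller adjusted p, such as Slc7a8, Mlxipl and Etfdh, are not named. Cell type markers are given as summed levels and counts. The members and lists were chosen with earlier results of these data known. Between both files of a 16-week sample, chi-square per gene was 1.34 to 3.15. Any 2 libraries of one group gave 6.31 or more, above the range for both files of a sample. The lowest value was that of WT-16 replicates 2 and 4. Libraries of different groups were not compared in this way. Whether any 2 libraries came from one animal was not tested.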

Additional observations from a re-analysis of the deposited data

Results flagged for a closer look

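Among the 40 sets of libraries checked (10 genes in 4 groups), 2 held a library whose distance from the nearest other was large against the range of its group, and chance flags about 1 in 20 such sets. Bcat2 had 7.15 CPM in replicate 5 of KO-16, with a gap to the next library of 0.746 of the range, from 43 read pairs. Ppm1k had 238 CPM in replicate 4 of WT-16, with a gap of 0.721 of the range, so that library widened the difference from KO-16. Without it the 16-week log2 fold change of Ppm1k was -1.29 (edgeR, adjusted p = 0.0997), against -1.33 with it. The call of Ppm1k was also lost without any other one of the WT-16 replicates.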

How the results depend on the processing

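At 8 weeks the calls of Acadsb, Ivd, Ppm1k and Bckdhb held in all 9 fits without 1 library (4 to 5 members called lower, 872 to 1163 genes called in all, against 1245) and under RLE, upper-quartile, DESeq2, both voom fits and both filters. They were lost in the fit to all 19 libraries with shared spread, where 0 members and 31 genes passed. At 16 weeks the log2 fold changes of the 4 called members stayed negative in every alternative run, and the counts moved. Against 356 genes and 4 members lower, no filter gave 1034 genes, DESeq2 1166 (626 higher and 540 lower, against 237 and 119), voom 332 (106 higher and 226 lower), voom with quality weights 2514 genes (10.5% of those tested lower) and 7 members, the fit to all 19 libraries 3181 genes (9.33% lower) and 7 members, the 18S covariate 35 genes and 0 members, and leaving out the libraries with Y-linked transcripts 10 genes and 0 members. Scaling to cardiomyocyte markers gave 3838 genes and 1 member higher, with the median of all genes shifted by 0.50. Leaving out 1 library gave 29 to 1856 genes, 0 to 7 members lower at 16 weeks, and, for the difference between times, 0 to 613 genes and 0 to 5 members. That difference had 43 genes with no filter and 30 with DESeq2. The lower calls ended without KO-16 replicate 2 (56 genes), 3 (51) or 4 (36) or WT-16 replicate 1 (32), 2 (29), 4 (32) or 5 (48). The cause was not tested. Leaving out 1 library, Bckdk over Ppm1k differed by 0.48 to 0.67 at 8 weeks and 1.37 to 1.86 at 16 weeks, Bckdha over Bckdhb by 0.17 to 0.27 and 0.77 to 1.13, and Mccc1 over Mccc2 by -0.16 to -0.04 and -0.40 to -0.27. With the earlier 16-week file alone the last 2 ratios differed by 1.03 (adjusted p = 0.0714) and -0.23 (adjusted p = 0.114) at 16 weeks in the exact permutation test. No paired analysis was possible because the replicate numbers only name the libraries in accession order and tie none across groups. Depth limits Bcat2, at 43 to 456 read pairs in the 16-week libraries, and also Bckdhb, a called member, at 81 to 558.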
